A study of Mus musculus with 60 samples.

Results

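The postsynaptic scaffold and adhesion genes described here were 36 genes chosen by symbol, which encode scaffold proteins, calmodulin-regulated kinases, adhesion proteins and spine adaptors of the synapse. Each gene was read from its brightest probe set among those annotated with that symbol alone, and it entered the tests where 6 or more of the 60 arrays had a log2 value of 4 or above. A probe set of their own was found for 33 of the 36 symbols, and 31 passed the filter, of 18193 genes measured and 11886 genes tested in all. Shank2, Ppp1r9b and Lrrc7 had no such probe set and were not analysed here. Shank1 lay between 2.11 and 2.31 and Homer3 between 2.07 and 2.28 over the strain means, at or near the floor of the scale at log2 2.07, so both were left out of the tests.

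RNA came from cortex of males of 30 inbred strains and was measured on expression arrays. In every strain, 1 group drank plain water and 1 group received fluoxetine, a serotonin reuptake inhibitor used as an antidepressant, by mouth at 18 mg/kg per day for 21 days. The mice were 10 to 11 weeks old, and each array carried the RNA of 3 animals of a strain and treatment, so a strain gave 1 water and 1 fluoxetine array and each treatment 30 arrays. The spread behind each p-value of the fits below therefore mixes differences between pools, between arrays and between strains in fluoxetine minus water. Individual animals were not measured. A whole piece of cortex was extracted, so fewer cells of a type and less RNA per cell cannot be told apart.

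Array medians lay between 39.1 and 43.1 intensity units, and 26.4% to 28.1% of probe sets on an array were at the floor. Of 15 marker genes of excitatory neurons, 14 were among the genes tested, with a summed intensity of 83846 to 93292 over the water arrays and 83489 to 94875 over the fluoxetine arrays. Of 13 striatal markers 9 were tested, and Drd2 and Adora2a were not among them. Of these 9, 7 passed the strain test and 8 had a range of strain means of at least 1, and their summed intensity ran from 4168 to 11572 over the water arrays and from 4755 to 7890 over the fluoxetine arrays. The part of striatal tissue in the results was not tested. The labels gave no array date or batch.

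The postsynaptic density is a protein mesh under the membrane of excitatory synapses. Membrane-associated guanylate kinases of the Dlg family hold receptors and adhesion proteins at the membrane, Dlgap proteins join them to Shank, and Shank joins Homer and the actin of the spine. Calcium entering through the receptors binds calmodulin and switches on the kinase Camk2, which is abundant in this mesh. Neuroligins and the leucine-rich repeat proteins Lrrtm1 and Lrrtm2 reach across the cleft to neurexins on the axon. Gphn, gephyrin, is the corresponding scaffold of inhibitory synapses.

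Most members differed between strains, as most genes did. The F-test of the strain terms in limma, with Benjamini-Hochberg adjustment over all genes tested, called 27 of 31 members, beside 88.3% of all genes tested. The distance between the highest and the lowest strain mean had a median of 0.57 on the log2 scale over the members and of 0.68 over all genes. It was at least 1, with the strain test passed, in 4 of 31 members, beside 26% of all genes. These were Camk4, Camk2d, Dlg4 and Cnksr2. Cnksr2, at 1.35, was the nearest above this limit, and Nlgn1 at 0.98, Dlgap2 at 0.97 and Homer2 at 0.94 were just outside. The intraclass correlation between the water and the fluoxetine array of a strain, which is 1 when they coincide, ran from 0.175 for Baiap2 to 0.939 for Camk4, with a median of 0.629 over the members and 0.593 over all genes.

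**Figure D1:**
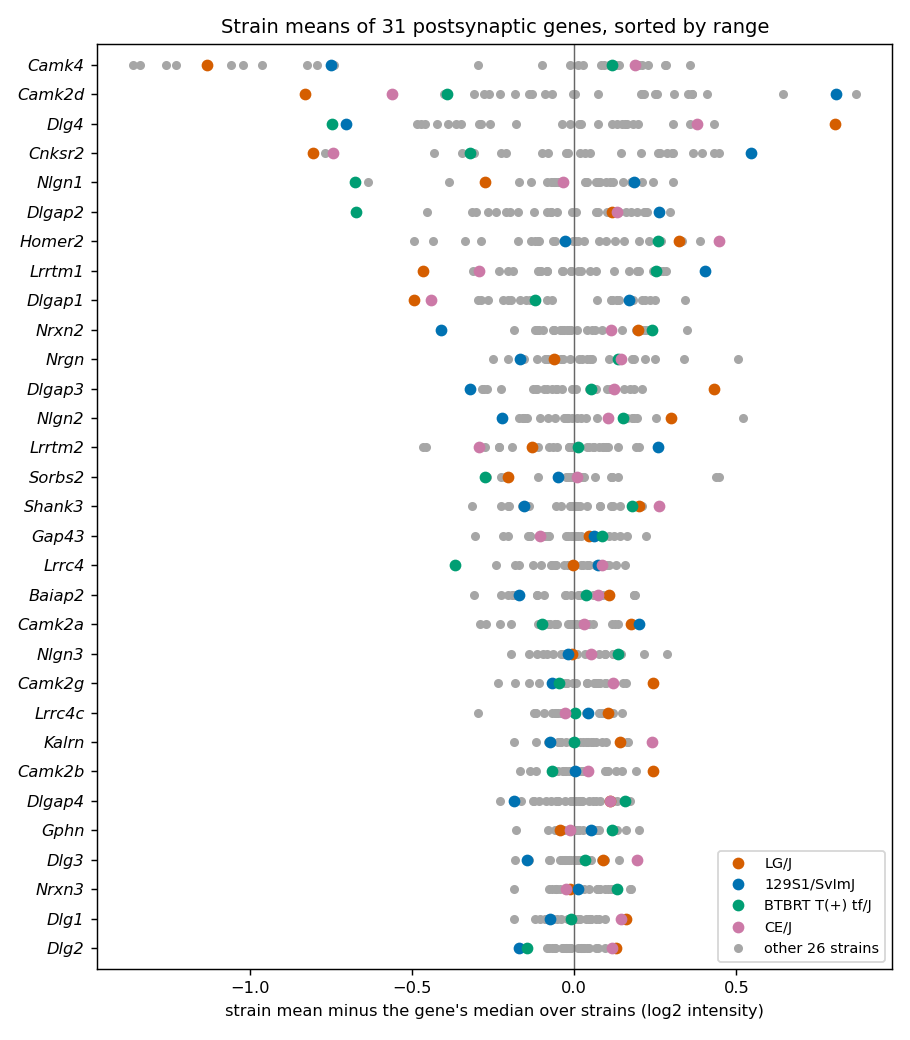
Strain means of the 31 genes tested (x axis, log2 intensity minus the gene's median over 30 strains; 1 point per strain, each the mean of a water and a fluoxetine array), with genes sorted by range (y axis). Camk4 splits into 2 groups of strains, and LG/J lies at the low end of Camk2d and Cnksr2 and at the high end of Dlg4.

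Among the guanylate kinase scaffolds, Dlg4, which encodes PSD-95, was the most variable. Its strain means ran from 8.96 in BTBRT T(+) tf/J through a median of 9.71 to 10.51 in LG/J, a range of 1.55 or 2.94-fold. 129S1/SvImJ was the next lowest at 9.00 and P/J the next highest at 10.14, and the other strains filled the space between. The strain test of Dlg4 passed narrowly (limma adjusted p = 0.0460), and its arrays of a strain resembled each other less than those of most members, with an intraclass correlation of 0.270. The other Dlg4 probe set that was tested ranked the strains much alike (r = 0.967, rho = 0.949 over 30 strains), with a range of 1.65 and LG/J again highest. The call was lost, with limma adjusted p of 0.0510 to 0.141, when 129S1/SvImJ, A/J, C57BL/6J, BALB/cJ, C57BLKS/J, BTBRT T(+) tf/J, NZB/BlNJ, AKR/J, CE/J, MA/MyJ or LG/J was left out.

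The other guanylate kinase scaffolds varied little by their brightest probe sets. Dlg1, Dlg2 and Dlg3, which encode SAP97, PSD-93 and SAP102, had ranges of 0.35, 0.30 and 0.37. All 3 passed the strain test, with limma adjusted p of 0.00230, 0.0338 and 0.00242. The call of Dlg2 was lost, at adjusted p of 0.0525 to 0.0715, without 129S1/SvImJ, BTBRT T(+) tf/J, CE/J, LG/J, P/J or I/LnJ. LG/J was the highest strain for Dlg1, Dlg2 and Dlg4 by their brightest probe sets. The other probe sets ranged over 0.60 and 1.75 for Dlg1 and over 1.25 and 2.31 for Dlg2.

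The linker proteins between Dlg and Shank differed in which strains were high. Dlgap1 was lowest in LG/J at 12.43 and CE/J at 12.48, had a median of 12.92, and was highest in SM/J at 13.27 (limma adjusted p = 8.94e-06). Dlgap2 was lowest in BTBRT T(+) tf/J at 9.58, 0.22 below the next strain, and highest in C3H/HeJ at 10.55 (limma adjusted p = 0.000233). Dlgap3 ran the other way from Dlgap1, from 10.42 in 129S1/SvImJ to 11.18 in LG/J, where it stood 0.22 above the next strain (limma adjusted p = 0.000756). Dlgap4 had a range of 0.40.

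In the deep layer of the density, Shank3, which joins the Dlgap proteins to Homer and the spine actin, ran from 11.28 in C57BL/6J to 11.86 in CE/J (limma adjusted p = 6.19e-07). Homer2, which couples Shank to metabotropic glutamate receptors, ran from 10.64 in SM/J to 11.58 in CE/J (limma adjusted p = 5.36e-05). By the brightest probe sets CE/J was thus the highest strain for both, as it was for Dlg3 and for Kalrn. The other Kalrn probe sets were highest in other strains, and 1429796_at ran opposite to the brightest (r = -0.745, rho = -0.739). Homer2 1457671_at was also highest in CE/J, but the weaker 1436110_at was highest in C57BLKS/J.

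Camk4, the calmodulin-dependent kinase that phosphorylates CREB in the nucleus, had the largest range of the members, 1.72 or 3.29-fold, and the strains fell into 2 groups with an empty space between them. Over the water arrays Camk4 ran from 11.32 through a median of 12.57 to 12.84, and over the fluoxetine arrays from 10.79 through 12.39 to 12.88. Strain means of 12 strains lay between 11.14 and 11.76, and those of the other 18 between 12.20 and 12.86. The low strains, from the lowest up, were DBA/2J, CBA/J, SM/J, I/LnJ, LG/J, RIIIS/J, A/J, NZW/LacJ, NZB/BlNJ, LP/J, 129S1/SvImJ and MRL/MpJ. SJL/J was the highest strain, and P/J was the lowest of the high group. The strain test gave a limma adjusted p of 2.81e-15.

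The direction of that split depended on the probe set. All 4 Camk4 probe sets that passed the filter separated the same 12 strains from the same 18 without overlap. Probe set 1441974_at ran the same way as the brightest, 1439843_at, with 5.66 to 7.49 in the 12 strains and 8.01 to 9.69 in the 18. Probe sets 1426167_a_at and 1421941_at ran the opposite way. The first of these gave 8.62 to 9.23 in the 12 strains and 7.39 to 7.93 in the 18, and the second gave 4.44 to 5.74 and 3.24 to 3.42. The last values lie below the log2 of 4 used as the filter, so they are weak signals. A statement that Camk4 is higher or lower in a strain thus holds for a probe set and not for the gene, and which part of the transcript each probe set reads was not tested. When all Camk4 probe sets were averaged, the range shrank to 0.77.

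**Figure D2:**
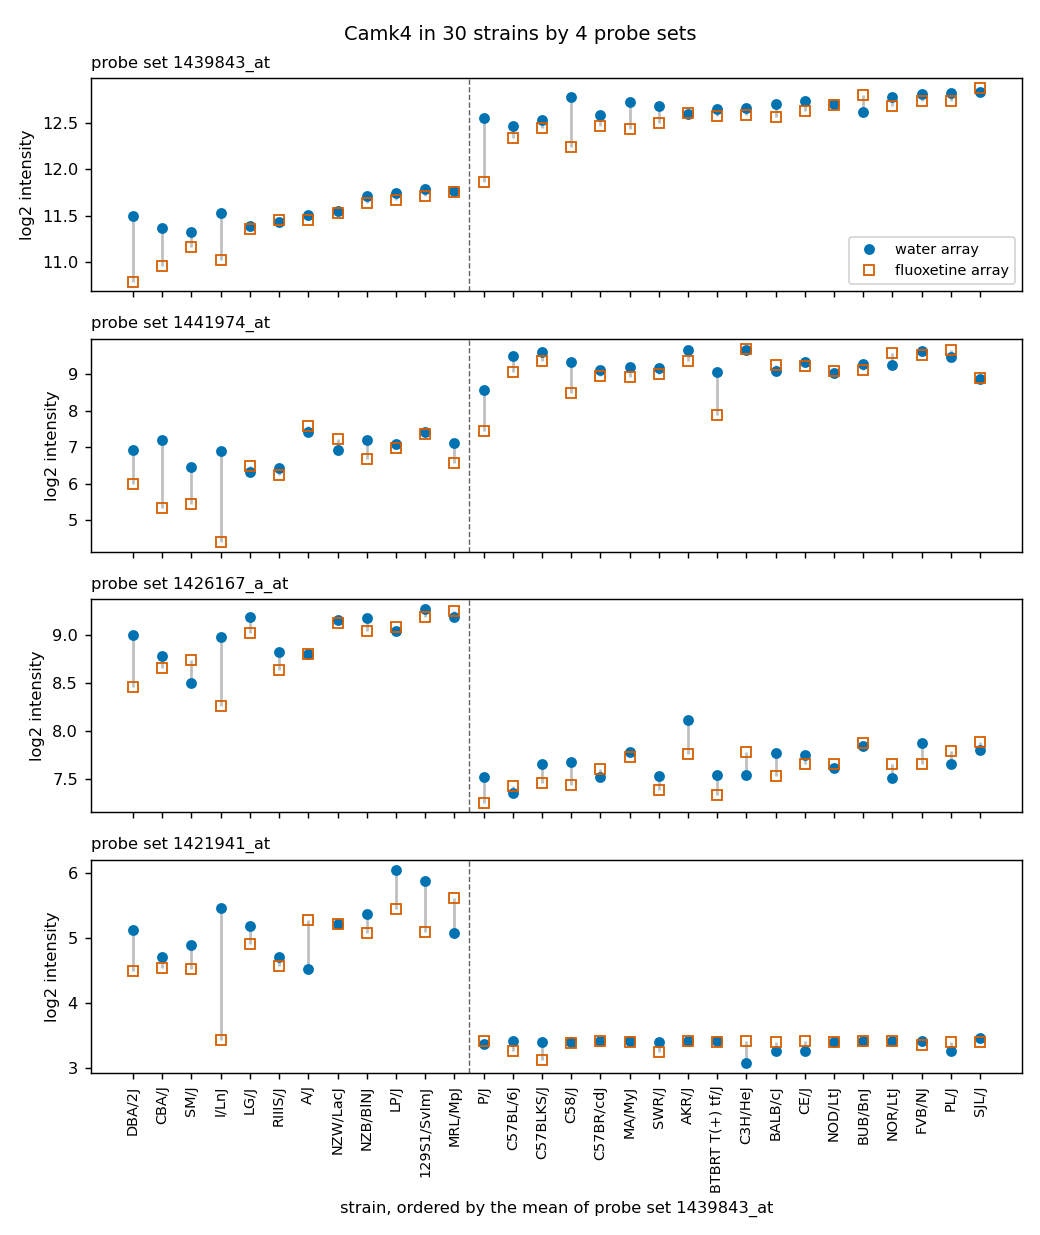
Log2 intensity of Camk4 in 4 probe sets (panels) for each of 30 strains (x axis, ordered by the strain mean of the brightest probe set; circles, water array; squares, fluoxetine array; the dashed line marks the widest gap). The 12 strains left of the line are lower in the upper 2 panels and higher in the lower 2, with no overlap of strain means in any panel.

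The Camk4 pattern was not shared by many genes. The genes whose strain means were most like it were Galntl6 (r = 0.677, rho = 0.653), Lrpprc (r = 0.644, rho = 0.608) and Lgr4 (r = 0.610, rho = 0.548), over 30 strains and all genes tested. All 3 lie on a different chromosome from Camk4, and 0 genes reached an r beyond 0.8 in either direction.

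Of the Camk2 subunits, which form the holoenzyme of the calcium- and calmodulin-dependent kinase II, only Camk2d reached a range of at least 1 by its brightest probe set. Camk2d ran from 9.65 through a median of 10.47 to 11.29 over the water arrays and from 9.59 through 10.49 to 11.61 over the fluoxetine arrays. Its strain means were lowest in LG/J at 9.62 and CE/J at 9.89, had a median of 10.45, and were highest in 129S1/SvImJ at 11.26 and SM/J at 11.32. The strains formed a continuous series, with a range of 1.70 or 3.25-fold, and 1.43 without LG/J (limma adjusted p = 3.46e-07). The other 5 Camk2d probe sets tested ranked the strains differently, with r between -0.272 and 0.434 against the brightest, and the mean of all Camk2d probe sets had a range of 0.53.

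The other Camk2 subunits had ranges under 0.5 by their brightest probe sets. Camk2a, the most studied subunit of forebrain neurons, had a range of 0.49 and an intraclass correlation of 0.187, and missed the strain threshold (limma adjusted p = 0.131). Among the fits of this probe set that left out a strain, it passed in the fit without P/J, at a limma adjusted p of 0.0453. The other 4 Camk2a probe sets tested all passed the strain test, with ranges of 0.88 to 2.35. Camk2b ranged over 0.41 and Camk2g over 0.48, both passed the strain test (limma adjusted p of 0.0212 and 0.000143), and LG/J was the highest strain for both. LG/J thus had the lowest Camk2d and the highest Camk2b and Camk2g.

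The small calmodulin-binding proteins varied moderately. Nrgn, neurogranin, which holds calmodulin in the spine, ran from 12.75 in PL/J to 13.51 in LP/J, where it stood 0.17 above the next strain (limma adjusted p = 5.48e-06). Gap43, its relative in growing axons and a presynaptic protein, ran from 11.69 in P/J to 12.22 in PL/J (limma adjusted p = 6.96e-06). PL/J was thus the lowest strain for one and the highest for the other.

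Among the adhesion proteins, Nlgn1, the neuroligin of excitatory synapses, was lowest in BTBRT T(+) tf/J at 10.10 and NZB/BlNJ at 10.14, both 0.25 or more below the remaining 28 strains, and highest in C3H/HeJ at 11.08 (limma adjusted p = 6.21e-07). Nlgn2, the neuroligin of inhibitory synapses, stood apart in I/LnJ at 12.12, with the next strain at 11.90 and the lowest, 129S1/SvImJ, at 11.38 (limma adjusted p = 1.39e-05). Nlgn3, which is found at both kinds of synapse, ranged over 0.48. The presynaptic partner Nrxn2 was lowest in 129S1/SvImJ at 9.78, 0.22 below the next strain, and highest in P/J at 10.54 (limma adjusted p = 6.71e-05). Nrxn3 ranged over 0.36.

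The leucine-rich repeat proteins had ranges under 1 by their brightest probe sets. Lrrtm1 and Lrrtm2, which bind neurexins, passed the strain test with ranges of 0.87 and 0.72 (limma adjusted p of 0.00166 and 0.000179), and 129S1/SvImJ was the highest strain for both, at 11.16 and 11.23. LG/J was lowest for Lrrtm1 at 10.29 and P/J for Lrrtm2 at 10.51. Lrrc4 and Lrrc4c, the netrin-G ligands 2 and 1, had ranges of 0.52 and 0.44 and missed the threshold (limma adjusted p of 0.0566 and 0.0523). Lrrc4 passed, at 0.0182 to 0.0488, without NZW/LacJ, C58/J, C57BR/cdJ, DBA/2J, BUB/BnJ or SJL/J. Lrrc4c passed, at 0.0163 to 0.0482, without A/J, BALB/cJ, C3H/HeJ, C58/J or DBA/2J. Their other probe sets all passed the strain test, with a range of 0.92 for Lrrc4 1416097_at and of 3.05 and 1.23 for Lrrc4c 1456759_at and 1437825_at.

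Of the spine adaptors, Cnksr2, a scaffold of Ras signalling bound to PSD-95, varied most by the brightest probe sets. It ran from 9.60 through a median of 10.31 to 11.01 over the water arrays and from 9.42 through 10.34 to 11.00 over the fluoxetine arrays. LG/J at 9.53, NZB/BlNJ at 9.56 and CE/J lay 0.31 below the other 27 strains, the median was 10.33, and BALB/cJ at 10.78 and 129S1/SvImJ at 10.88 were highest. The range was 1.35 or 2.55-fold (limma adjusted p = 4.17e-06). The other Cnksr2 probe set ranged over 1.29, but it ranked the strains differently (r = 0.221), with I/LnJ lowest and NOR/LtJ highest.

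Sorbs2, which encodes an adaptor of the actin skeleton, set 2 related strains apart. C57BR/cdJ at 13.03 and C58/J at 13.02 lay 0.30 above the next strain, C57BL/6J, and that gap was 41.8% of the whole range (limma adjusted p = 3.03e-07). Kalrn, an activator of Rac in spines, ranged over 0.43 (limma adjusted p = 0.000266). Baiap2, which links Rac to actin, ranged over 0.50 and missed the threshold (limma adjusted p = 0.138), passing at 0.0499 without BUB/BnJ and in no other fit that left out a strain. The other 3 Baiap2 probe sets passed, with limma adjusted p of 0.00116 to 0.0198. Gphn ranged over 0.38 (limma adjusted p = 0.000650).

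Extreme values were counted by strain, from the brightest probe set of each gene. LG/J was the highest strain for 6 of 31 members and the lowest for 4, beside 10.3% and 4.73% of all genes tested. BTBRT T(+) tf/J was the lowest for 5 members, namely Dlg4, Dlgap2, Nlgn1, Lrrc4 and Sorbs2, and the highest for none, beside 2.33% and 7.50% of all genes. 129S1/SvImJ was the lowest for 4 and the highest for 4, beside 8.91% and 5.46% of all genes. CE/J was the highest for 4, beside 8.19%, and C58/J the lowest for 4, beside 5.27%.

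The members did not vary independently over the strains. Pairs of all genes were not counted beside them, and many other genes shared the main pattern, as described below. By their brightest probe sets, the strain means of Dlgap1, Camk2d and Cnksr2 rose and fell together. The other Dlgap1 probe sets tested had r between -0.318 and 0.539 against the brightest. Those of Camk2d and Cnksr2 also ranked the strains differently. The other Lrrtm1 probe sets tested had r of 0.117 and 0.0475 against the brightest, and the other Nrxn2 probe set had 0.239. Over 30 strains, Dlgap1 correlated with Cnksr2 at r = 0.889 (rho = 0.840) and with Camk2d at r = 0.874 (rho = 0.840), and Camk2d with Cnksr2 at r = 0.858 (rho = 0.868). Without the 2 strains farthest from the median these values were 0.843, 0.829 and 0.838. By their brightest probe sets, Nlgn2 and Nrxn2 formed another pair (r = 0.835, rho = 0.883, and 0.884 without 2 strains). The strongest opposite pair by the brightest probe sets was Dlg4 with Lrrtm1 (r = -0.767, rho = -0.713, and -0.695 without 2 strains). These are the extremes of 465 pairs, whose median r was 0.02, and each of these 5 values of r had an unadjusted permutation p of 1e-05, the smallest that 100000 permutations can give. Because the members were picked with results known, they are given as a description.

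**Figure D3:**
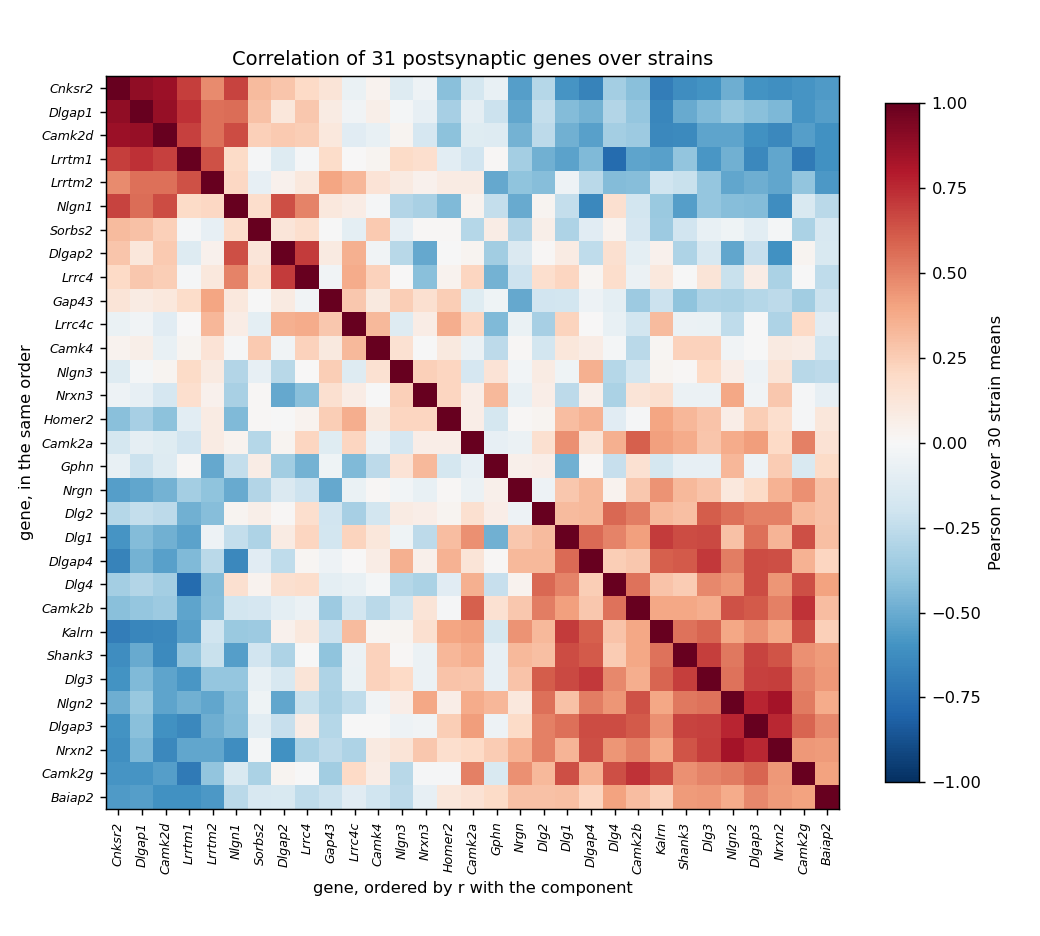
Pearson r over 30 strain means for each pair of the 31 genes (colour, from -1 in blue to 1 in red), with genes on both axes in the order of their correlation with the main component of all other genes. Dlgap1, Camk2d, Cnksr2, Lrrtm1 and Lrrtm2 form a positive block in the upper left, opposite to the block that holds Nlgn2, Nrxn2, Dlgap3, Camk2g and Baiap2.

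Both blocks followed an axis that ran through the whole data set. The main principal component of the strain means, computed over all genes tested that were no members, held 10.8% of their variance. By their brightest probe sets, Cnksr2 (r = 0.878, rho = 0.851), Dlgap1 (r = 0.876, rho = 0.830), Camk2d (r = 0.842, rho = 0.852) and Lrrtm1 (r = 0.806, rho = 0.779) lay at its positive end. Baiap2 (r = -0.692, rho = -0.723), Camk2g (r = -0.686, rho = -0.668) and Nrxn2 (r = -0.676, rho = -0.686) lay at its negative end. Without the 2 most extreme strains, r was 0.826 for Cnksr2, 0.821 for Dlgap1, 0.784 for Camk2d and 0.732 for Lrrtm1. An r beyond 0.5 was reached by 17 of 31 members, 5 positive and 12 negative, beside 32.8% of all genes, 8.03% positive and 24.8% negative. Camk4, with r = 0.0882, did not lie on this axis.

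That axis moved with the order in which the samples were deposited. Of the first 15 strains in that order 14 had a positive score, and of the last 15 strains 14 had a negative score, with LG/J at -0.398 and CE/J at -0.363 lowest and 129S1/SvImJ at 0.290 highest. The mean of the first 15 strains was above that of the last 15 by 0.56 for Camk2d, 0.52 for Cnksr2, 0.35 for Dlgap1 and 0.27 for Lrrtm1, and below it by 0.24 for Dlg4. The median absolute difference was 0.11 over the members and 0.10 over all genes, so the members as a set were close to all genes. Each strain lies in 1 part of that order, so strain and whatever the order stands for cannot be told apart in these differences. This division of the strains was chosen after the scores were seen.

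Within each part of that order the relations named next kept their sign. Those of 7 other members with the component did not, among them Nrgn (-0.510 and 0.0316), Dlgap2 (0.577 and -0.0911), Lrrc4 (0.525 and -0.117) and Nrxn3 (-0.379 and 0.398). The correlation with the component was 0.789 and 0.706 for Cnksr2, 0.677 and 0.647 for Dlgap1, and 0.583 and 0.738 for Camk2d, in the first and the last 15 strains. These were all below the values over 30 strains. For Dlg4 it was -0.214 and -0.723, against -0.552 over 30 strains. Dlgap1 and Cnksr2 correlated at 0.681 and 0.808, Nlgn2 and Nrxn2 at 0.764 and 0.803, and Dlg4 and Lrrtm1 at -0.745 and -0.803. Ranges of at least 1 were also found within each part: 1.26 and 1.04 for Camk2d, 1.05 and 1.27 for Dlg4, and 1.54 and 1.72 for Camk4, while Cnksr2 had 0.87 and 0.95. Of the 12 strains with low Camk4, 5 were among the first 15 and 7 among the last 15.

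**Figure D4:**
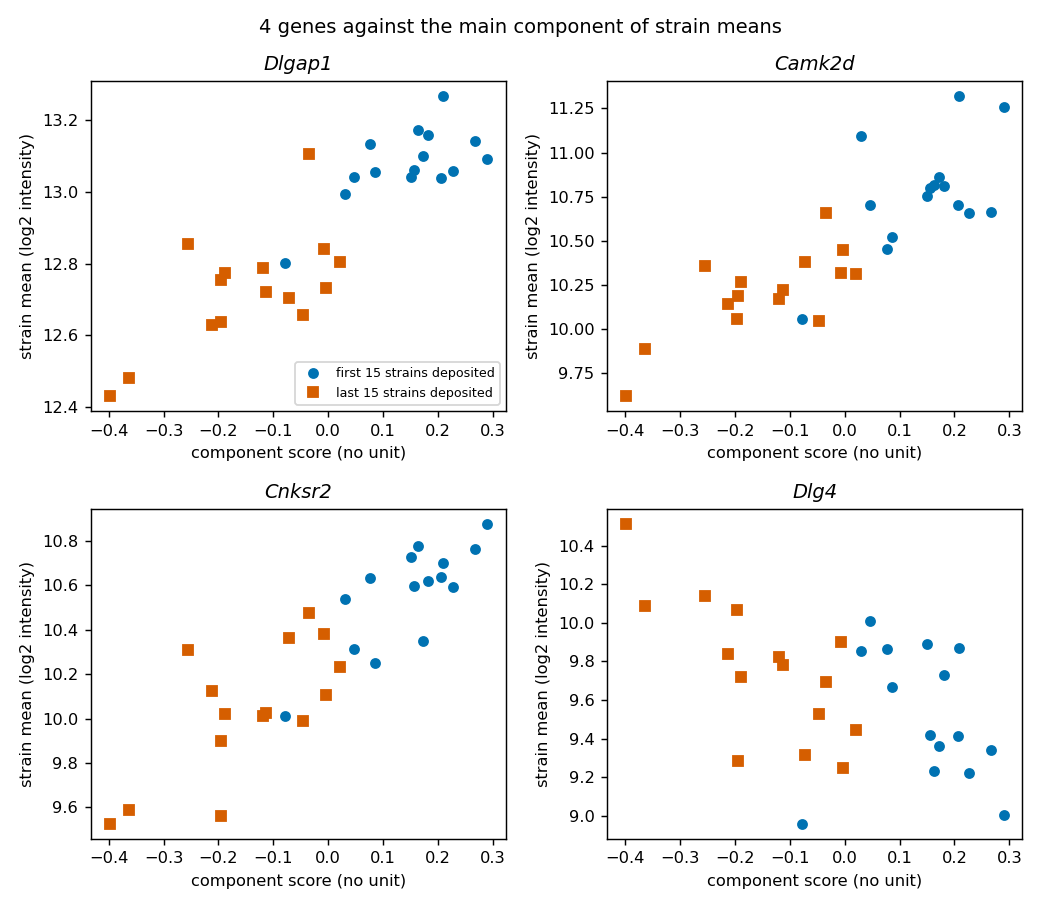
Strain means of Dlgap1, Camk2d, Cnksr2 and Dlg4 (y axes, log2 intensity) against the score of each strain on the main component of all other genes (x axes; circles, first 15 strains deposited; squares, last 15). The first 3 genes rise along the component and Dlg4 falls, and nearly all circles lie at positive and nearly all squares at negative scores.

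Signs of RNA quality did not follow the axis closely. The signal of the 3' minus the 5' probe sets of Actb correlated with the component at r = -0.0592 and that of Gapdh at r = -0.0437, over 30 strains. Of 9 endothelial markers, 8 were tested, and the mean of their strain means correlated with Camk2d at r = -0.618 and with Cnksr2 at r = -0.645. Their summed intensity ran from 7335 to 11578 over the water arrays and from 7397 to 10425 over the fluoxetine arrays, and Ly6c1 was not tested. The 10 interneuron markers correlated with Camk2d at r = -0.499 and with Cnksr2 at r = -0.475. With the other marker lists, r ran from -0.149 to 0.133 for Camk2d and from -0.258 to 0.103 for Cnksr2. The part of these cell types in the strain differences was not tested.

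Many other genes shared the pattern of Camk2d and Cnksr2. Strain means most like those of Camk2d belonged to Gria2, an AMPA receptor subunit on the same chromosome (r = 0.928), to Krit1 (r = 0.922) and to Cep170 (r = 0.921), and 329 genes had an r beyond 0.8 in either direction. Those most like Cnksr2 were Lypla1 (r = 0.935), Trnt1 (r = 0.933) and Ubr3 (r = 0.931), among 336 such genes. Those most like Dlg4 were Mta2 (r = 0.825), Cacng3 (r = 0.822) and Ldb1 (r = 0.821), among 8. Cacng3 encodes an auxiliary subunit of AMPA receptors that binds PSD-95.

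By their brightest probe sets, Dlgap1, Camk2d and Cnksr2 moved together most closely over the strains. The sequences before their transcription starts are therefore shown. They are the 120 bases upstream of annotated starts, from RefSeq on GRCm38.p6, written 5′ to 3′ on the strand of the gene, and capitals mark matches to the motifs searched. Dlgap1 has 2 annotated windows, chr17:69968953-69969072 and chr17:70561627-70561746, both on the plus strand. The Camk2d window is chr3:126596831-126596950 on the plus strand, and Cnksr2 has 2 overlapping windows on the minus strand, chrX:158043198-158043317 and chrX:158043281-158043400, of which the first is printed.
Dlgap1 window 1: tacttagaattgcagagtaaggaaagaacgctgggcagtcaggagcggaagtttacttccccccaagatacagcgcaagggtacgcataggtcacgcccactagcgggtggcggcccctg
Dlgap1 window 2: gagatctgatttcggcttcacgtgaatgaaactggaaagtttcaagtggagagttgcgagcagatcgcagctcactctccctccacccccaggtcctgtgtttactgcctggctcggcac
Camk2d window 1: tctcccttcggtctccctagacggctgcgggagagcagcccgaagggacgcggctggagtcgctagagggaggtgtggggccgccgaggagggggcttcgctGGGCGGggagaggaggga
Cnksr2 window 1: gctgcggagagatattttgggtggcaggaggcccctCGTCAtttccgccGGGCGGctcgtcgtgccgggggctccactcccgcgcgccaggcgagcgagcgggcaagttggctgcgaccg

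The motifs searched, on both strands, were the cyclic AMP response element (TGACGTCA), its shorter form (TGACG, which lies within it), the GC box (GGGCGG) and the TATA box (TATAAA). Within the printed bases Camk2d held 1 GC box, Cnksr2 window 1 held 1 GC box and 1 short response element, and neither Dlgap1 window held any of the motifs. The Cnksr2 window not printed held 2 GC boxes. Promoter windows were found for 26 of the 36 members, 42 windows in all, and the 250 bases before each start were searched. A GC box was present in 17 of these 42 windows and in 32.7% of all 32851 windows, the short response element in 3 and in 17.8%, the TATA box in 4 and in 12.4%, and the full response element in 0 and in 1.55%. A match is a description of the letters and not of binding.

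With fluoxetine the members moved little. Of 31 members 0 were called by the limma fit blocked on strain, at a Benjamini-Hochberg adjusted p of 0.05, beside 0.0589% of all genes tested, which is 7 genes. At an unadjusted limma p under 0.05, 6 members were lower, beside 8.0% of all genes, and 1 was higher, beside 7.3%. The mean difference, fluoxetine minus water, was below 0 in 19 of 31 members and in 53.1% of all genes, with a median of -0.01 over the members and of -0.0029 over all genes. Every member's mean difference lay between -0.15 and 0.10 on the log2 scale.

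**Figure D5:**
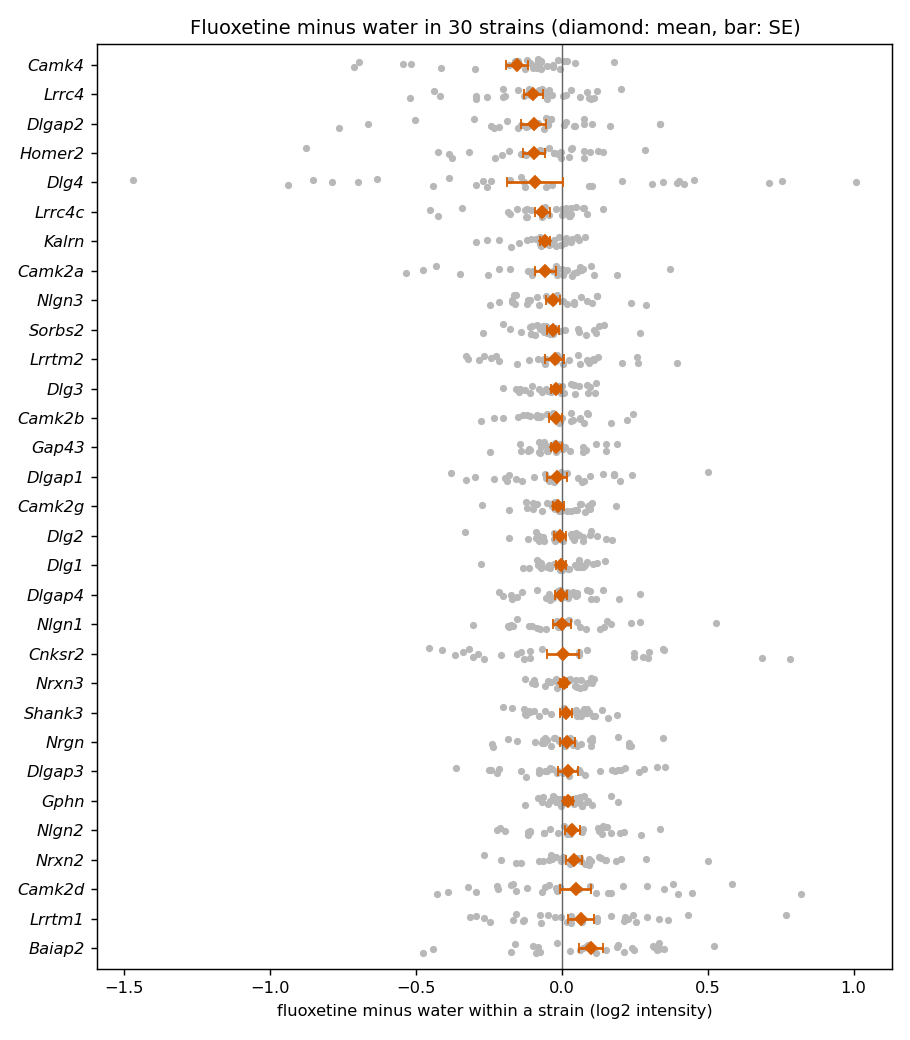
Fluoxetine minus water within each strain (x axis, log2 intensity; grey points, 30 strains; diamonds, mean; bars, SE from limma) for the 31 genes, sorted by the mean (y axis). Camk4 has the lowest mean at -0.15 and Baiap2 the highest at 0.10, and single strains of Dlg4 reach -1.47.

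Camk4 came closest to the threshold. Its level with fluoxetine was below that with water in 26 of 30 strains, with a mean difference of -0.15 (SE 0.0379), or -10.1% (limma adjusted p = 0.0764). DBA/2J at -0.71 and P/J at -0.69 had the largest differences, and 4 strains lay beyond 0.5. The direction was the same in strains on both sides of the gap, with 11 of the 12 low and 15 of the 18 high strains below 0 and medians of -0.07 and -0.09. Among the other 3 probe sets the mean difference was -0.38 for 1441974_at, -0.10 for 1426167_a_at and -0.13 for 1421941_at. All 4 means were thus below 0 although the probe sets disagreed on the strains. In the 18 high strains 1421941_at gave weak signals, with a median difference of 0 and 8 strains below 0. Among the 12 low strains it was below 0 in 9, with a largest fall of -2.04. With every probe set tested on its own, Camk4 1439843_at had a limma adjusted p of 0.0975, the smallest of the 86 member probe sets.

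Kalrn was lower with fluoxetine in 23 of 30 strains, by a mean difference of -0.06 (SE 0.0173; limma adjusted p = 0.110). Its water arrays ran from 13.64 through 13.76 to 13.97 and its fluoxetine arrays from 13.44 through 13.73 to 13.97. The 2 sets of arrays overlapped almost entirely, and P/J at -0.29 differed most. The Kalrn probe sets disagreed: 1448023_at had a mean difference of 0.06 and was higher in 24 of 30 strains. Of the 7 that were not the brightest, 5 had a mean above 0, and the mean over all Kalrn probe sets was -0.0023.

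Lrrc4 ran from 10.38 through 10.78 to 10.99 with water and from 10.34 through 10.66 to 10.92 with fluoxetine. It was lower in 20 of 30 strains, by a mean of -0.10 (SE 0.0317; limma adjusted p = 0.141), with the largest difference in SJL/J at -0.52. Its relative Lrrc4c ran from 12.65 through 12.81 to 12.99 and from 12.26 through 12.78 to 12.90. Lrrc4c was lower in 17 of 30 strains, by -0.07 (SE 0.0259; limma adjusted p = 0.206), and DBA/2J at -0.45 and P/J at -0.42 differed most. Both groups overlapped for both genes.

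Baiap2 was the 1 member higher at an unadjusted p under 0.05. Its water arrays ran from 10.79 through 11.24 to 11.58 and its fluoxetine arrays from 10.93 through 11.26 to 11.72. It was higher in 21 of 30 strains, by 0.10 (SE 0.0409; limma adjusted p = 0.227), with the largest rise in DBA/2J at 0.52 and the largest fall in BUB/BnJ at -0.47. The other 3 Baiap2 probe sets also had means above 0, the largest being 0.10 for 1435128_at, higher in 22 of 30 strains.

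Homer2 ran from 10.60 through 11.19 to 11.58 with water and from 10.26 through 11.14 to 11.58 with fluoxetine. It was lower in 21 of 30 strains, by -0.09 (SE 0.0392; limma adjusted p = 0.229), and P/J stood out at -0.88. Both other Homer2 probe sets were lower in 21 strains too, by -0.09 and -0.14.

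Dlgap2 ran from 9.85 through 10.30 to 10.63 with water and from 9.20 through 10.24 to 10.72 with fluoxetine. It was lower in 20 of 30 strains, by -0.10 (SE 0.0424; limma adjusted p = 0.266), with BTBRT T(+) tf/J at -0.76 and C58/J at -0.66 farthest down. By its brightest probe set Camk2a was evenly split, lower in 15 strains and higher in 15, with a mean of -0.06 (SE 0.0351, limma adjusted p = 0.474). Its water arrays ran from 12.80 through 13.09 to 13.44 and its fluoxetine arrays from 12.59 through 13.05 to 13.34. The other Camk2a probe sets tested all had means below 0, from -0.27 for 1452453_a_at to -0.05 for 1437125_at. Of these, 1442707_at was lower in 22 of 30 strains and 1437125_at in 14.

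Single strains could differ far more than the means. Dlg4, with a mean of -0.09 (SE 0.0964; limma adjusted p = 0.715), lay beyond 0.5 in 9 of 30 strains, from -1.47 in P/J to 1.01 in SJL/J. P/J and BUB/BnJ each had the largest fall of 6 of 31 members, and over all genes tested they had it for 12.2% and 10.5%. With 1 array per strain and treatment, a difference in a single strain has no replicate.

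Tested one by one, 0 of 86 member probe sets were called for fluoxetine, beside 0.0462% of all 21631 probe sets. The 55 probe sets that were not the brightest of their gene had the same sign of the mean difference as the brightest in 44 cases. They were read on the same arrays as the brightest, so they are no replicates of it. The share of same signs over all genes was not counted. In the first 15 strains deposited 0 members and 0 genes were called, and in the last 15 strains also 0 and 0. Camk4 had -0.12 and -0.19 there, and was lower in 14 of 15 and in 12 of 15 strains.

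Markers of some other cells moved beside the Camk4 difference. Over 30 strains the Camk4 difference correlated with the mean difference of 10 interneuron markers at r = -0.701. The value was -0.698 for 9 microglial markers and -0.621 for 10 astrocyte markers. For the other marker lists it lay between -0.0971 and 0.282. These values include the strains with the largest Camk4 differences and are given as a description. For Kalrn the value with the astrocyte markers was -0.632. The summed astrocyte markers ran from 70809 to 83195 over the water arrays and from 73588 to 91822 over the fluoxetine arrays, and 3 of the 10 had a mean difference below 0. The summed microglial markers ran from 5442 to 8697 and from 5719 to 13113, with 2 of 9 below 0, and the interneuron markers from 47991 to 59409 and from 48411 to 65352, with 3 of 10 below 0. All 11 oligodendrocyte markers tested, of 12, had a mean below 0, and their sum ran from 35185 to 58405 and from 24491 to 61198. The part of these cell types in the members' differences was not tested.

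Further genes of these pathways were counted in 5 lists, to be read beside all genes tested, of which 8.0% were lower and 7.3% higher at an unadjusted p under 0.05 and 88.3% passed the strain test. In none of these lists was a gene called for fluoxetine by limma. Among 34 further excitatory scaffold genes tested, 4 were lower and 2 higher at an unadjusted p under 0.05, and 31 passed the strain test. Arhgef7, a Rac activator, differed by 0.11 (SE 0.0327; limma adjusted p = 0.0944) and Arhgap32 by -0.08 (SE 0.0254; limma adjusted p = 0.121). The largest strain ranges in this list were those of Lin7c, from 9.07 in CE/J to 11.12 in A/J, and Magi1, from 9.41 in SWR/J to 10.86 in SM/J.

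Among 41 further adhesion genes, 11 were lower and 7 higher at an unadjusted p under 0.05, and 35 passed the strain test. Nptx1, a neuronal pentraxin, differed by 0.16 (SE 0.0395; higher in 24 of 30 strains; limma adjusted p = 0.0772) and Lrfn2, a leucine-rich repeat protein bound to PSD-95, by -0.12 (SE 0.0336; limma adjusted p = 0.0878; below 0 in 23 strains). Cbln4 and Cbln1, secreted partners of neurexins, had the largest strain ranges, 3.03 and 2.97.

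Of 17 genes of calcium and calmodulin signalling, 3 were lower and 1 higher at an unadjusted p under 0.05, and 14 passed the strain test. Camkk2, the kinase that activates Camk4, differed by -0.13 and was lower in 23 of 30 strains (SE 0.0347; limma adjusted p = 0.0836). Ppp1r1b, which encodes DARPP-32 and is also among the striatal markers, differed by 0.33 (SE 0.105, limma adjusted p = 0.132). Of the 9 striatal markers tested, 7 had a mean difference below 0, so this rise was not that of the striatal list. Among the 17 signalling genes Ppp1r1b also had the largest strain range, 1.76, followed by Camk1g with 1.53.

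Of 25 spine actin genes, 3 were lower and 2 higher at an unadjusted p under 0.05, and 23 passed the strain test. Ngef differed by -0.09 (limma adjusted p = 0.102) and Actn1 by 0.08 (limma adjusted p = 0.198), and Actn2 and Eps8 had the largest strain ranges, 1.34 and 1.11. Of 9 genes of the inhibitory postsynapse, which include Nlgn2 and Gphn, 0 were lower and 1 was higher at that threshold, and 7 passed the strain test. Iqsec3 differed by 0.08 (limma adjusted p = 0.153) and Gabarapl1 by -0.04 (limma adjusted p = 0.470), and Dtna and Glrb had the largest strain ranges, 1.01 and 0.98.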

How the data were processed

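The authors deposited 1 linear intensity per probe set and array, produced by GCRMA per the submitters' processing notes (no version was given in the sources used here). This method corrects for background by probe sequence and normalizes between arrays, and it compresses values near the floor. That the scale is linear was read from the values, which ran from 4.21 to 72333.5, and they were put on the log2 scale without a pseudocount. Of 45101 probe sets, 34945 were paired with 1 gene in the platform annotation. The number of arrays limits the precision.

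Fluoxetine was compared with water by limma 3.58.1 in R 4.3.3 (lmFit and eBayes, two-sided) with strain as a block, because each strain gave 1 array per treatment. Strains were compared by the F-test of the strain terms of that fit. The p-values called adjusted were adjusted over the 11886 genes tested, or over the 21631 probe sets tested where single probe sets are given, at 0.05. The fit was tested on simulated data. Strain means are the mean of both arrays of a strain. Full values are given for members that passed the strain test with a range of at least 1, and for the 8 members with the smallest fluoxetine p. The 3 genes most like each such variable member were named, and of each further list the 2 with the smallest fluoxetine p and the 2 with the largest range. Sequences came from RefSeq tables. The members, the lists and these rules were chosen with earlier results of these data known. Levels of different genes are not compared.

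The alternatives tried were other probe set rules, filters, centring, a fit without the block, an intensity trend, the arrays of 1 treatment alone and leaving out each strain. Each probe set on its own, and both parts of the order of deposit, were added after seeing the data.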

Additional observations from a re-analysis of the deposited data

How the results depend on the processing

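The count of members called for fluoxetine was 0 under each of the alternatives run, including each probe set on its own, both parts of the order of deposit and each of 30 fits that left out a strain. Without the replicate block, limma called 0 members and 0 of all genes, where the paired fit called 0 members and 7 genes. The count of all genes called ran from 0 to 9 over the other alternatives and from 0 to 21 over the fits that left out a strain, so it rests on single strains. The mean differences of the 8 members given in full kept their sign under each alternative at the level of the gene, though that of Kalrn was -0.0023 with all probe sets averaged, and 5 of its 7 other probe sets had a mean above 0. Between strains, 26 to 29 members were called under the alternatives and 25 to 29 when a strain was left out. The number of members with a range of at least 1 was 8 over the fluoxetine arrays alone, where the means of both arrays gave 4, and it was 3 to 5 under the others and 3 to 4 without a strain. Averaging all probe sets of a gene gave ranges of 0.77 for Camk4, 0.53 for Camk2d, 1.02 for Dlg4 and 1.04 for Cnksr2. Under that choice Dlg4 no longer passed the strain test (limma adjusted p = 0.126). The cause of these changes was not tested.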

Other observations

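The probe sets that did not represent a gene in the comparisons held several large strain differences, picked here after their values were seen. Of 55 such probe sets, 29 had a range of strain means of at least 1. The share over all such probe sets of the array was not counted, so this count cannot be read as a trait of these genes. The largest outside Camk4 was that of Lrrc4c 1456759_at, from 8.80 in C58/J to 11.84 in NZW/LacJ with a median of 11.28 and an intraclass correlation of 0.907, while the brightest Lrrc4c probe set ranged over 0.44. Nrxn3 1456137_at was lowest in CE/J at 10.14, against a median of 11.29 (intraclass correlation 0.917), and Dlgap1 1443508_at was lowest in BTBRT T(+) tf/J at 8.30, against 9.42 (0.823). The strain means of these 55 probe sets correlated with those of the brightest probe set of their gene at a median r of 0.31, above 0.5 in 15 and below 0 in 12.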
